A study of Mus musculus with 6 samples.

Results

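Fibroblast growth factors (FGFs) and their receptors were followed through 10 genes of the deposited expression table, chosen by symbol: the ligands Fgf1, Fgf2, Fgf7, Fgf10 and Fgf18, the receptors Fgfr1 to Fgfr4, and the carrier gene Fgfbp1. All 10 were found among the 24421 genes listed. The samples were 3 mammary glands and 3 mammary tumours of female mice at the age of 5 months. The tumour donors were FVB/NJ; MMTV-Tg(LINK-A) animals, in which the transgene for the long non-coding RNA LINK-A is named together with MMTV, the mouse mammary tumour virus promoter that is active mainly in mammary epithelium. The gland donors were FVB/NJ; Tg(LINK-A) animals, so both groups carry the transgene by label, the gland label does not name the promoter, and tissue and donor genotype cannot be told apart. Neither the number of founder lines nor separate animals for the libraries of a group are stated, so the p-values reflect no more than the spread among these samples, which may be technical. LINK-A itself was not analysed here.

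FGFs are secreted proteins that bind heparan sulphate and activate receptor tyrosine kinases, which signal mainly through the adaptor Frs2, Ras and the MAP kinases. In the mammary gland, Fgf7 and Fgf10 are made by stromal cells and act on an epithelial splice form of Fgfr2 that is needed for bud formation and duct branching. The receptors exist in splice forms with different ligand preference, which a table with 1 value per gene does not separate.

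The start regions of Fgf2, Fgf10, Fgf7 and Fgfr2 are shown. Fgf2, Fgf10 and Fgfr2 are the members called lower that had a start region among the RefSeq regions used. Fgf7 acts on the same receptor form as Fgf10. Each is 250 bases before to 50 after the annotated start in RefSeq on GRCm38.p6, written 5′ to 3′ on the strand of the gene, and capitals mark matches on either strand to the GC box letters GGGCGG. They lie at chr3:37348403-37348702 on the plus strand (Fgf2), chr13:118714449-118714748 on the plus strand (Fgf10), chr2:126034408-126034707 on the plus strand (Fgf7) and chr7:130266759-130267058 on the minus strand (Fgfr2).
Fgf2: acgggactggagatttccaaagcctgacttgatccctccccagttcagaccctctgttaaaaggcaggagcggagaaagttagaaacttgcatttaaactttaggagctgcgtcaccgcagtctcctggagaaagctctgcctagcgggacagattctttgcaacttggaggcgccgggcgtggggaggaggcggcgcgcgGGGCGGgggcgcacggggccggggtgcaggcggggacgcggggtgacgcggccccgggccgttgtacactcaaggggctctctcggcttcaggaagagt
Fgf10: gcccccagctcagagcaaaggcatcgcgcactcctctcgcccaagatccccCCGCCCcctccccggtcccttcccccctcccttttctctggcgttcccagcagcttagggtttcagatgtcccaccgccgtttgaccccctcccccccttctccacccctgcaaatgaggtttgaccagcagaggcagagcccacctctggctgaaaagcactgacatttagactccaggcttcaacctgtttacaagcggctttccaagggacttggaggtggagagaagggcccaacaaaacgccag
Fgf7: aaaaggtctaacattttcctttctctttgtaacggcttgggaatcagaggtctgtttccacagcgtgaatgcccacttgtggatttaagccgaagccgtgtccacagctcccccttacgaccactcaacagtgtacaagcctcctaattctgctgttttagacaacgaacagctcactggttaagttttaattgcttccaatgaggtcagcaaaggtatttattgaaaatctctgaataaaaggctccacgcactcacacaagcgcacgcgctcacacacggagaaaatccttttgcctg
Fgfr2: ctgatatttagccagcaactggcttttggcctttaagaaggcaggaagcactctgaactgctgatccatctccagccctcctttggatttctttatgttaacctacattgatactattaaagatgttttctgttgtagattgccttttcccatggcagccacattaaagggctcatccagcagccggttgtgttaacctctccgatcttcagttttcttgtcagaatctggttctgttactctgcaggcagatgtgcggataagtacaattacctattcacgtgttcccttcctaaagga

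The Fgf2 and Fgf10 regions had 62.7% and 60.7% G and C, with 24 and 10 CpG pairs and 1 GC box each. The Fgf7 and Fgfr2 regions had 45.7% and 43.7%, with 11 and 4 CpG pairs and no GC box. The GC box letters occur in 35.7% of all 32851 start regions of the same length. The TATA box letters TATAAA (13.6% of all regions), the AP-1 letters TGANTCA (7.81%) and the ETS core letters CCGGAA (14.9%), searched on both strands, were in none of these 4. The regions of Fgf18 and Fgfr4, for which every gland also lay above every tumour, are not printed and differ from these. They had 78.7% and 65.3% G and C, with 1 and 4 GC boxes, and the Fgfr4 region held 1 ETS core match. A missing match says only that the letters are not in this window. Start regions on chromosome 18, which holds Fgf1, were left out for the members. Of the 10 members, 8 had a start region among the rest.

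Values are in FPKM, which scales fragments by gene length and by library size, so levels of different genes can be compared. The libraries summed to between 486080 and 582996 FPKM, and absolute depth is unknown because the table holds no counts. The labelled tissues were checked against cell type markers. The epithelial keratin gene Krt8 stood at 224 to 232 FPKM in the glands and 833 to 891 in the tumours, and all 10 luminal epithelium markers rose. All 10 adipocyte, all 9 tested fibroblast and all 7 endothelial markers fell, as did 6 of 10 basal and myoepithelial markers, with 4 not passing. Of 7 leukocyte and macrophage markers 5 were lower, 0 higher and 2 did not pass. Gland 2 held high skeletal muscle genes (7 markers summing to 11483 FPKM, against 13.3 and 1031 in glands 1 and 3). Glands 1 and 3 held high B cell and lymph node genes (202 and 201 FPKM summed, against 34.2 in gland 2 and 1.42 to 54.03 in the tumours). Tumour 3 had the lowest stromal levels, with the 10 fibroblast markers summing to 128 FPKM against 357 and 440.

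**Figure D1:**
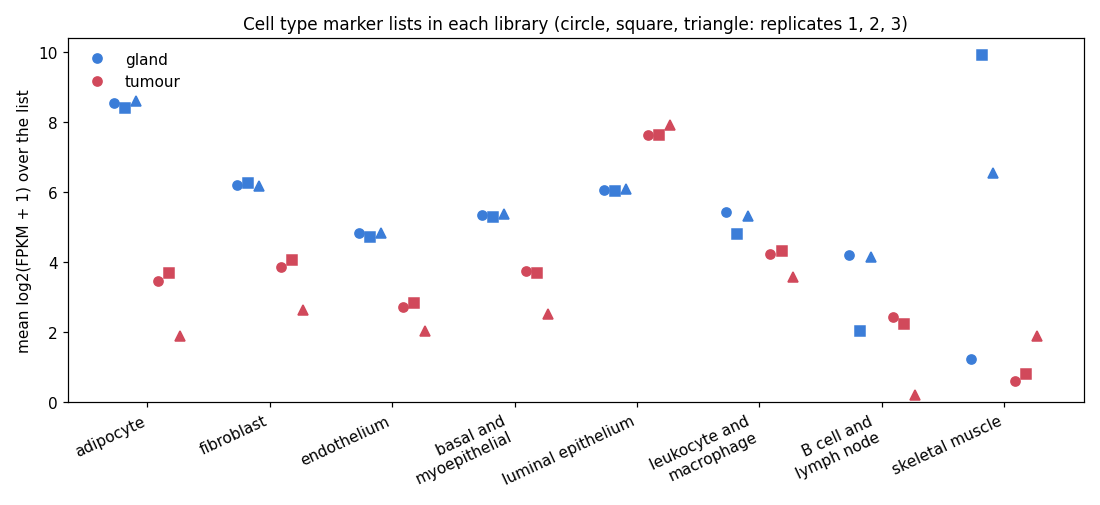
Mean log2(FPKM + 1) over each list of cell type markers (vertical axis) in each library, glands in blue and tumours in red, with 1 symbol per library. Gland values of the fibroblast list run from 6.17 to 6.25 and tumour values from 2.64 to 4.06. For the luminal list they run from 6.05 to 6.08 and from 7.64 to 7.91.

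The ligands were low in the glands and lower still in the tumours. The 5 ligand members summed to 12.5, 13.7 and 14.4 FPKM in glands 1 to 3 and to 1.37, 1.297 and 0.822 FPKM in tumours 1 to 3. On the log2(sum + 1) scale this was a difference of -2.76 (2-sided exact permutation test over 20 arrangements, p = 0.1, the smallest that 3 against 3 can give). In bulk tissue, fewer cells of a type and less RNA per cell cannot be told apart. Fgf10 was the most abundant ligand in the glands, with 34.6% to 43.5% of the ligand sum, and Fgf1 was the most abundant in each tumour, with 35.1% to 61.4%.

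**Figure D2:**
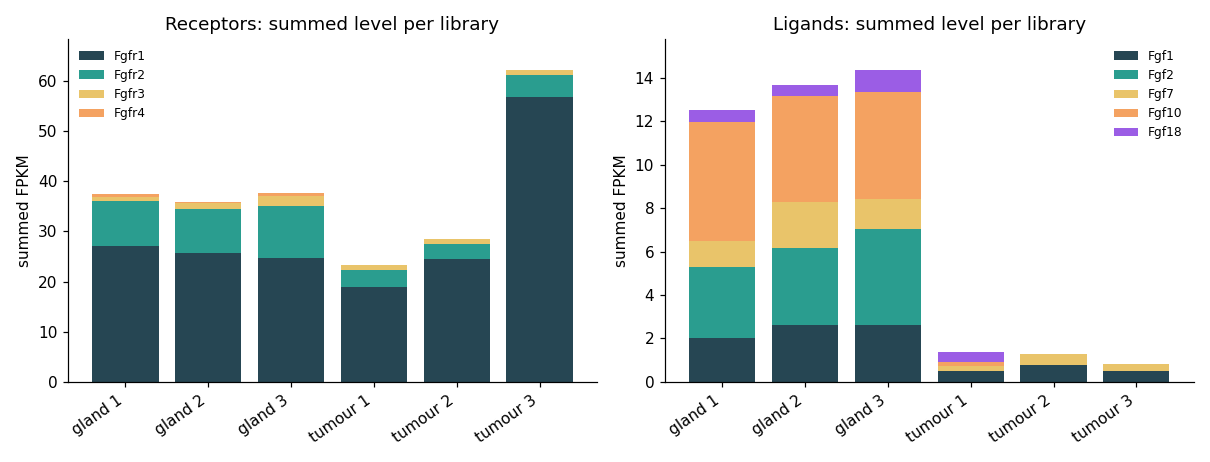
Stacked FPKM (vertical axes, from 0) of the 4 receptors and of the 5 ligands in each of the 6 libraries. Fgfr1 makes up most of the receptor bar in every library, the tallest receptor bar is tumour 3 at 62.2 FPKM, and the ligand bars of the tumours stay at or under 1.37 FPKM.

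Fgf10, the stromal ligand of the epithelial Fgfr2 form (chromosome 13, 118669791 to 118792115, GRCm38), stood at 5.46, 4.90 and 4.97 FPKM in glands 1 to 3. In tumours 1 to 3 it stood at 0.180, 0 and 0 FPKM. Every gland lay far above every tumour, and the fall was -2.53 (SE 0.16, adjusted p = 7.9e-05 in limma) in log2(FPKM + 1), a scale used for all differences below that understates the change of low genes. Fgf2, a matrix-bound ligand that lacks a signal peptide and acts on many cell types (chromosome 3, 37348346 to 37410108), stood at 3.25, 3.57 and 4.42 FPKM in the glands and was listed at 0 in all 3 tumours. Its fall passed the test (adjusted p = 1.5e-04), and no fold is given against a group at 0. The gene Nudt6 lies on the opposite strand and shares 640 of the 6782 annotated exon bases of Fgf2. The use of strand in counting is unknown here, so reads in the shared stretch may belong to either gene. Nudt6 stood at 14.8, 14.5 and 11.7 FPKM in the glands against 4.57, 7.56 and 5.11 FPKM in the tumours.

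Fgf1, a ligand of all FGF receptors that also lacks a signal peptide, stood at 2.03, 2.60 and 2.64 FPKM in the glands against 0.481, 0.796 and 0.4995 FPKM in the tumours. The groups did not overlap, and the fall was -1.11 (SE 0.18, adjusted p = 0.00292). Fgf7, or keratinocyte growth factor, the close relative of Fgf10 (chromosome 2, 126034658 to 126091185), stood at 1.22, 2.10 and 1.36 FPKM in the glands. Its tumour values were 0.264, 0.501 and 0.323 FPKM, again below every gland. The mean of Fgf7 over the 6 libraries was 0.962 FPKM, just under the minimum of 1 for the test, while the tested member nearest to that minimum, Fgfr3, had a mean of 1.196 FPKM. With no minimum, Fgf7 passed at -0.90 (SE 0.16, adjusted p = 0.00627). Fgf18, a ligand that prefers Fgfr3 and the mesenchymal receptor forms (chromosome 11, 33117430 to 33147400), stood at 0.569, 0.506 and 0.992 FPKM in the glands against 0.445, 0 and 0 FPKM in the tumours. Tumour 1 came close to the lowest gland, and with no minimum Fgf18 did not pass (-0.57, SE 0.19, adjusted p = 0.0549).

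**Figure D3:**
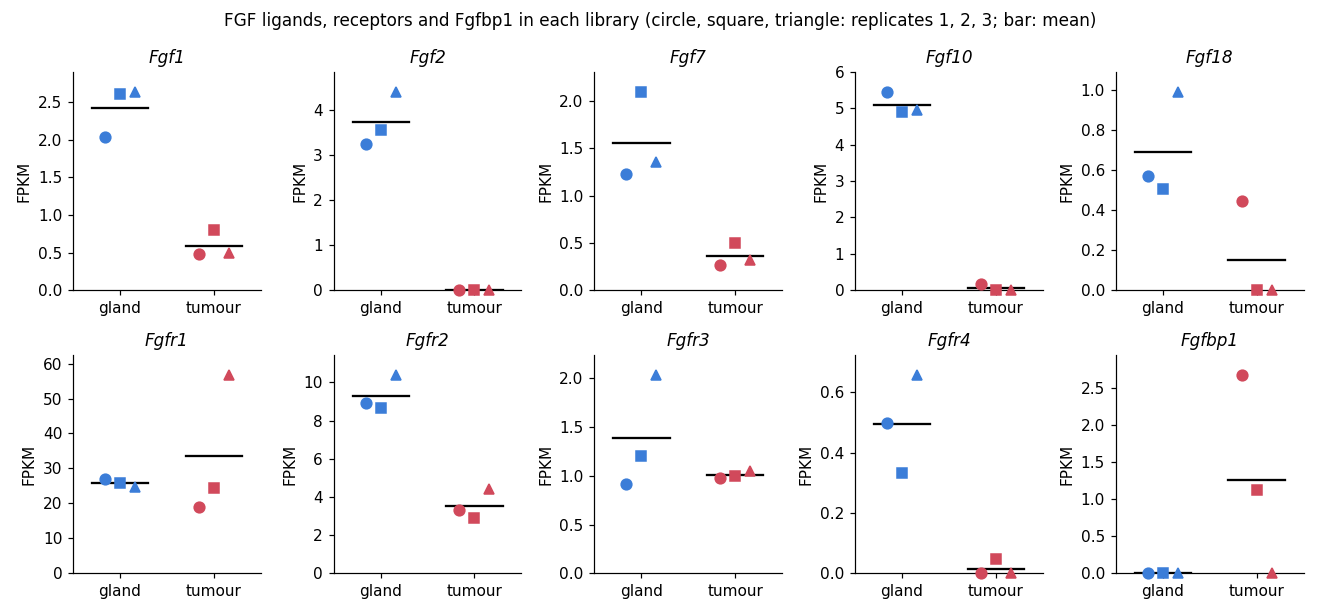
FPKM (vertical axes, from 0, each with its own range) of the 10 members in each library, glands in blue and tumours in red, with bars at the group means. Every gland lies above every tumour for Fgf1, Fgf2, Fgf7, Fgf10, Fgf18, Fgfr2 and Fgfr4, and for Fgfr1 tumour 3 stands apart at 56.7 FPKM.

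The ligands were low in the same libraries as the markers of the stroma. Tumour means were 24.4% of the gland mean for Fgf1, 23.2% for Fgf7, 21.6% for Fgf18 and 1.18% for Fgf10. The 9 tested fibroblast markers had tumour means between 5.80% and 32.5% of their gland means, with the receptor gene Pdgfra at 6.84% and the matrix gene Fbln1 at 20.1%. The 10 adipocyte markers lay between 0.406% and 8.06%, with the leptin gene Lep at 1.44% and the lipase gene Lipe at 8.06%. The values of Fgf1, Fgf7 and Fgf18 lay inside the fibroblast range. That of Fgf10 lay below those of the 9 tested fibroblast markers and inside the adipocyte range. The fibroblast range was not the only one to hold Fgf1, Fgf7 and Fgf18. The ranges of tested leukocyte and macrophage (15.1% to 85.8%) and B cell and lymph node markers (13.98% to 33.03%) held them too. So did that of basal and myoepithelial markers (4.83% to 132%). The endothelial range (10.7% to 24.01%) held Fgf7 and Fgf18. One untested fibroblast marker, Tcf21, was listed at 0 in every tumour, as Fgf2 was. Its gland values were only 0.205 to 0.406 FPKM, against 3.25 to 4.42 FPKM for Fgf2. Relative to the mean log2 level of the fibroblast list in the same library, the difference was 0.40 for Fgf10 (2-sided exact permutation p = 0.7) and 0.69 for Fgf2 (exact permutation p = 0.2), and tumours and glands overlapped. For Fgf1 it was 1.82 with no overlap (exact permutation p = 0.1, the smallest possible), so no member could pass on that measure. That measure rests on the log2(FPKM + 1) scale, which compresses these low genes more than the abundant markers. Fgf1, Fgf2 and Fgf10 would come out above 0 on it even if absent from every tumour, so its sign says nothing about them. The part of the marker genes in the lower ligand levels was not tested.

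Most other FGF genes were low or listed at 0. Of the 22 FGF genes in the table, 6 (Fgf3, Fgf4, Fgf5, Fgf6, Fgf15 and Fgf20) were listed at 0 in all 6 libraries and 11 were listed at 0 in all 3 tumours. The test covered 5 FGF genes, each with a tumour mean under 1 FPKM, so that they reached the minimum only through the glands and their common direction follows from that. With no minimum, 7 of the 16 FGF genes above 0 in some library were lower, 0 higher and 9 did not pass, against 20.9% of all genes lower. Beside Fgf1, Fgf2 and Fgf10 the tested genes were Fgf11 and Fgf13, which belong to the intracellular FGF homologous factors that bind sodium channels and do not act as secreted ligands. Fgf13 stood at 5.07, 7.69 and 5.49 FPKM in the glands against 0.799, 0.656 and 0.0626 FPKM in the tumours (-2.25, SE 0.26, adjusted p = 6.4e-04). Fgf11 fell from 2.56 ± 0.369 to 0.688 ± 0.362 FPKM (mean ± SD, n = 3 each, -1.10, SE 0.22, adjusted p = 0.00698). Fgf11 did not pass after quantile normalization, at adjusted p = 0.0616, nor once glands 1 and 3 were left out, at a difference of -1.004 and adjusted p = 0.119. That fit leaves 1 gland, which is assumed to vary as the tumours do, so a call lost there need not mean a smaller difference. Over all its alternatives the adjusted p ran from 0.00577 to 0.119.

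Among the 4 kinase receptors, Fgfr1 had the highest level in every library and did not pass the test, Fgfr2 fell, and Fgfr3 did not pass. Of the 10 members, 6 reached the minimum mean and 4 of these 6 were lower (Fgf1, Fgf2, Fgf10 and Fgfr2), against 23.1% of tested genes. Fgf1, Fgf2 and Fgf10 reached the minimum only through the glands, so this count supports no direction. In limma 0 members were higher, at an unadjusted p under 0.05 as well, against 21.9% of tested genes called higher. With no minimum, 6 of 10 members were lower, against 20.9% of 18174 genes above 0 in some library. Every gland lay above every tumour for 7 of the 10 members, a pattern that 27.8% of those 18174 genes shared.

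Fgfr1, the receptor of stroma and of many epithelia (chromosome 8, 25513654 to 25575718), stood at 27.1, 25.8 and 24.62 FPKM in glands 1 to 3. It stood at 19.01, 24.56 and 56.7 FPKM in tumours 1 to 3. Tumours 1 and 2 lay under every gland and tumour 3 above every gland, so the groups overlapped. The difference was 0.21 (SE 0.36, adjusted p = 0.672), and -0.24 (SE 0.13, adjusted p = 0.169) without tumour 3, with a range of 0.169 to 0.855 over its alternatives on the scale of single genes. The high value of tumour 3 stood beside its low fibroblast markers. Relative to the fibroblast list the difference of Fgfr1 was 3.13 and relative to the luminal list -1.45, each without overlap (2-sided exact permutation p = 0.1, the smallest possible). The fibroblast list fell and the luminal list rose, so a gene with no change would show the same signs and the same lack of overlap. These values thus say nothing about the direction of Fgfr1.

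Fgfr2, whose epithelial form receives Fgf7 and Fgf10, stood at 8.91, 8.63 and 10.4 FPKM in the glands against 3.33, 2.91 and 4.42 FPKM in the tumours. The groups did not overlap, and the fall was -1.19 (SE 0.16, adjusted p = 0.00137). Luminal markers rose in the same libraries, and relative to the luminal list the difference of Fgfr2 was -2.85 with no overlap (exact permutation p = 0.1). Fibroblast markers fell, and relative to that list the difference of Fgfr2 was 1.74, also with no overlap (exact permutation p = 0.1). Without glands 1 and 3, which left 1 gland, the difference was -1.09 (adjusted p = 0.0807, and 5.7e-04 to 0.0807 over all alternatives). The annotated span of Fgfr2 on chromosome 7 (130162451 to 133123350) includes a long form that shares 314 exon bases with Ctbp2 on the same strand, and Ctbp2 stood at 22.6 to 25.2 FPKM in the glands and 29.96 to 37.2 in the tumours.

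Fgfr3 (chromosome 5, 33721674 to 33737068), best known as a brake on bone growth, stood at 0.918, 1.1996 and 2.03 FPKM in the glands against 0.976, 0.997 and 1.05 FPKM in the tumours. The tumours lay inside the range of the glands. The difference was -0.22 (SE 0.22, adjusted p = 0.447) and turned to 0.27 under quantile normalization. G630022F23Rik, on the opposite strand, shares 998 of the 7158 annotated exon bases of Fgfr3 and has no values here. With strand use unknown, reads in that stretch may belong to either gene. Fgfr4 (chromosome 13, 55152640 to 55168759), the receptor of bile acid control in liver, stood at 0.497, 0.333 and 0.657 FPKM in the glands against 0, 0.0475 and 0 FPKM in the tumours. Its mean was under the minimum, and with no minimum it passed at -0.55 (SE 0.095, adjusted p = 0.0055).

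Fgfr1 took a larger share of the receptor sum in every tumour than in any gland. It made up 65.3% to 72.4% of the summed FPKM of the 4 receptors in the glands and 81.5%, 86.1% and 91.2% in tumours 1 to 3. Fgfr2 made up 23.8% to 27.6% in the glands and 14.3%, 10.2% and 7.11% in the tumours. For the log2 ratios 1 FPKM was added to each gene first, which lowers the ratios to Fgfr3, a gene near 1 FPKM, below the plain ones. The log2 ratio of Fgfr1 to Fgfr2 was 1.38 ± 0.184 in the glands and 2.78 ± 0.605 in the tumours (mean ± SD, n = 3 each) with no overlap. That of Fgfr2 to Fgfr3 was 2.14 ± 0.230 and 1.17 ± 0.219. Each had p = 0.1 in the 2-sided exact permutation test, 0.15 after adjustment over the 3 pairs, so neither could pass in this design. The ratio of Fgfr1 to Fgfr3 overlapped (difference 0.43, exact permutation p = 0.5). The summed receptor level was 37.4, 35.9 and 37.7 FPKM in the glands and 23.3, 28.5 and 62.2 FPKM in the tumours, so that tumour 3 alone lay above the glands (difference -0.09 in log2, exact permutation p = 1).

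Fgfbp1, which encodes a secreted carrier that frees FGFs from the matrix (chromosome 5, 43978858 to 43981779), was listed at 0 in all 3 glands. It stood at 2.67, 1.12 and 0 FPKM in tumours 1 to 3, so that 2 tumours lay above the glands and 1 equalled them. With no minimum it did not pass (adjusted p = 0.129). Fgfrl1, a receptor without a kinase domain that binds FGFs, fell from 25.3 ± 2.23 to 13.8 ± 2.94 FPKM (-0.85, SE 0.17, adjusted p = 0.00666). With 1 gland left, without glands 1 and 3, the difference was -0.74 and did not pass (adjusted p = 0.181, and 0.00386 to 0.181 over all alternatives). Its level stood above that of Fgfr1 in glands 1 and 3.

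Klb, or beta-klotho, the co-receptor that endocrine Fgf21 needs in fat tissue, stood at 11.3, 11.4 and 11.99 FPKM in the glands against 0, 0.260 and 0 FPKM in the tumours. Its fall was -3.54 (SE 0.16, adjusted p = 2.3e-05). Its tumour mean was 0.751% of the gland mean, within the range of the adipocyte markers given above, whose part in this was not tested. It also lay within the range of the skeletal muscle markers (0.089% to 0.803%). Of the 6 genes of the binding and co-receptor list above 0 in some library, 4 were lower and 2 did not pass with no minimum. In that setting 20.9% of all genes were lower. Klb, Flrt2 and Fgfbp3 reached the minimum only through the glands, and Fgfbp1 was kept out by it. The others lower were Flrt2 (-1.36, SE 0.19) and Flrt3 (-0.71, SE 0.17), membrane proteins that bind FGF receptors, and the carrier Fgfbp3 (-0.75, SE 0.22, adjusted p = 0.0287). The calls of Flrt3 and Fgfbp3 were lost in 5 and 7 of 14 alternatives, with adjusted p from 0.0107 to 0.221 and from 0.0212 to 0.409. Flrt3 lost its call without gland 1 (adjusted p = 0.0515) or gland 3 (0.0719). Fgfbp3 lost it without gland 1 (adjusted p = 0.0731), gland 2 (0.0695), gland 3 (0.0631) or tumour 2 (0.0852).

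**Figure D4:**
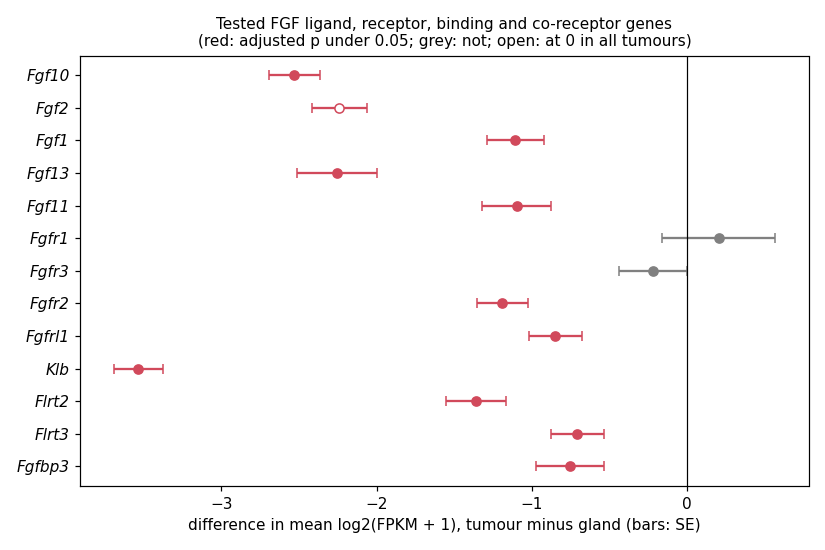
Difference in mean log2(FPKM + 1), tumour minus gland (horizontal axis), with its SE, for the 13 tested genes of the ligand, receptor and binding lists, in red where the adjusted p was under 0.05 and open for Fgf2, which is listed at 0 in all tumours. All points but Fgfr1 lie left of 0, with Klb at -3.54 and Fgfr2 at -1.19. Fgf1, Fgf2, Fgf10, Fgf11, Fgf13, Klb, Flrt2 and Fgfbp3 reached the minimum mean only through the glands, so their common side follows from that. The direction of Fgfr3 turned under quantile normalization.

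Heparan sulphate genes, whose sugar chains hold FGFs at the cell surface, were called in both directions, as genes in general were (21.9% of all tested genes higher and 23.1% lower). Of 10 tested core protein genes 3 were higher, 4 lower and 3 did not pass (median -0.58, against 0.00832 for all tested genes). The basement membrane gene Hspg2, or perlecan, fell from 26.8 ± 3.82 to 5.72 ± 2.08 FPKM (-2.08, SE 0.24, adjusted p = 6.3e-04) and the glypican gene Gpc3 from 30.6 ± 4.75 to 2.39 ± 1.72 (-3.38, SE 0.44). Gpc6 fell by 1.19 (SE 0.19), and the epithelial syndecan gene Sdc1 rose from 26.1 ± 2.81 to 40.5 ± 1.51 FPKM (0.62, SE 0.11, adjusted p = 0.00395). Gpc4 did not pass (-0.28, adjusted p = 0.0949), except without tumour 3 (adjusted p = 0.0466, the lowest of its alternatives, which reached 0.240). Of 13 tested enzymes 5 were higher, 3 lower and 5 did not pass (median -0.11). Sulf2, which strips 6-O-sulphate from the chains outside the cell, stood at 26.6, 22.7 and 25.7 FPKM in the glands against 59.7, 74.04 and 98.4 FPKM in the tumours (1.57, SE 0.19, adjusted p = 7.4e-04). Sulf1, an enzyme with the same activity that was picked after its values were seen, fell from 4.74 ± 1.09 to 1.75 ± 0.790 FPKM (-1.08, SE 0.26, adjusted p = 0.0143). Its call was lost without gland 1 (adjusted p = 0.0508) or gland 3 (0.0605), with 0.0117 to 0.269 over all alternatives. Hs6st1, which adds that sulphate, rose by 0.64 (SE 0.14). The chain polymerase gene Ext1 fell by 0.65 (SE 0.11) and the heparanase gene Hpse by 1.81 (SE 0.32), while Ext2 did not pass (-0.11). The calls of Hspg2, Gpc3, Gpc6, Ext1, Hpse and Hs6st1 were lost without glands 1 and 3, with differences of -1.93, -3.57, -1.21, -0.59, -1.27 and 0.73.

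Of 19 tested genes from Frs2 to the MAP kinases 3 were higher, 0 were lower and 16 did not pass, with a median of -0.0033, against 21.9% of all tested genes higher and 23.1% lower. The kinase gene Map2k1 (MEK1) rose from 24.4 ± 1.73 to 41.8 ± 3.81 FPKM (0.75, SE 0.11, adjusted p = 0.00197). The Ras gene Nras rose by 0.28 (SE 0.095, adjusted p = 0.0463), with the call lost in 11 of 15 alternatives, those without gland 1, 2 or 3 or tumour 1 or 2 among them (adjusted p from 0.0335 to 0.200 over all). Of the alternatives for Map2k1, only leaving out glands 1 and 3 ended its call (0.68, adjusted p = 0.0842, and 0.00121 to 0.0842 over all). Mapk3 (ERK1), at 75.7 ± 5.85 and 90.5 ± 11.5 FPKM, did not pass (adjusted p = 0.145).

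MAP kinase signals from FGF and other receptors induce a set of feedback and target genes. Of 15 tested 7 were higher, 2 lower and 6 did not pass, with a median of 0.44, against 21.9% of all tested genes higher and 23.1% lower. The ETS factor gene Etv1 stood at 1.69, 2.03 and 1.74 FPKM in the glands against 9.26, 10.51 and 26.4 FPKM in the tumours (2.39, SE 0.36, adjusted p = 0.00204). Tumour 3 was the highest tumour, and without it the difference was 1.95. The related Etv4 rose from 2.77 ± 0.431 to 9.91 ± 4.36 FPKM (1.47, SE 0.27) and Etv5 from 12.9 ± 1.89 to 27.9 ± 10.3 (1.001, SE 0.26, adjusted p = 0.0205). Both, and Spry2, were picked after their values were seen. The ERK phosphatase gene Dusp6 stood at 22.05, 19.1 and 26.5 FPKM in the glands and at 44.6, 46.5 and 74.5 in the tumours (1.23, SE 0.22, adjusted p = 0.00434).

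The early response gene Fos rose by 1.31 (SE 0.18, adjusted p = 0.00138). Egr1 of the same list went the other way (-0.61, SE 0.17, adjusted p = 0.0227), with every gland above every tumour. It was also picked after its values were seen and was not among the genes refitted over the alternatives. The Sprouty genes, inhibitors that FGF signals induce, went apart. Spry1 fell from 12.3 ± 2.22 to 5.196 ± 1.20 FPKM (-1.11, SE 0.19, adjusted p = 0.0037) while Spry2 rose from 10.1 ± 0.205 to 18.6 ± 5.58 (0.78, SE 0.21, adjusted p = 0.0199). The phosphatase gene Dusp4 did not pass (-0.46, adjusted p = 0.114) except without tumour 3 (-0.67, adjusted p = 0.0117, range 0.0117 to 0.592), nor did the cyclin gene Ccnd1, which stood at 57.5, 48.4 and 58.9 FPKM in the glands against 59.8, 57.9 and 120 FPKM in the tumours. Tumour 3 had the highest tumour value of Fgfr1, Etv1, Etv4, Etv5, Dusp6, Fos, Spry1, Spry2, Dusp4 and Ccnd1, and 3 tumours do not allow a test of their order. Il17rd and Spred3 of the same list, also picked after their values were seen, were highest in tumour 2. The share of all genes that were highest in tumour 3 was not counted. The calls of Etv1, Etv4, Etv5, Dusp6, Fos, Spry1 and Spry2 were lost without glands 1 and 3, with differences of 2.29, 1.38, 1.22, 1.44, 0.95, -1.38 and 0.81. The call of Etv5 was also lost without gland 2 (adjusted p = 0.0647), gland 3 (0.058) or tumour 2 (0.0618, and 0.00509 to 0.164 over all alternatives). Spry2 lost its call without gland 1 (adjusted p = 0.0542), gland 2 (0.0559), gland 3 (0.0619) or tumour 2 (0.0603, range 0.00439 to 0.228).

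**Figure D5:**
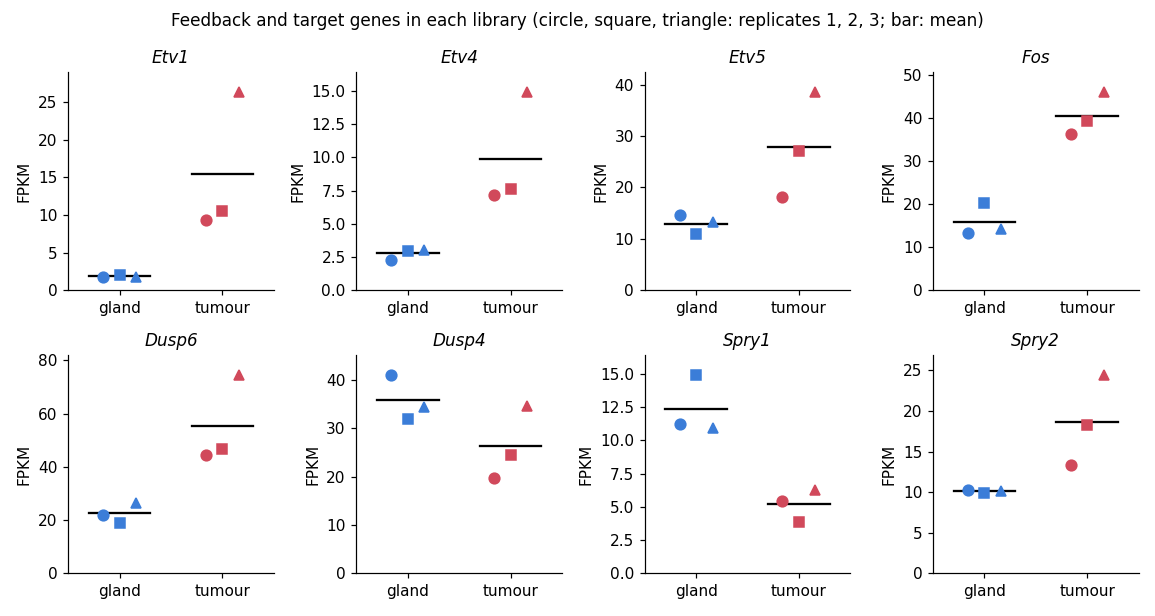
FPKM (vertical axes, from 0, each with its own range) of 8 feedback and target genes in each library, glands in blue and tumours in red, with bars at the group means. Tumour 3 (triangle) is the highest tumour in every panel, Etv1 goes from at most 2.03 FPKM in the glands to 26.4 in tumour 3, and Spry1 is lower in every tumour than in any gland.

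Regulators of receptor splicing were at high levels in both tissues. Esrp1 and Esrp2, the epithelial factors that favour the epithelial form of Fgfr2, rose from 30.5 ± 2.42 to 49.6 ± 1.03 FPKM (0.69, SE 0.099, adjusted p = 0.00171) and from 11.9 ± 0.534 to 28.6 ± 7.96 FPKM (1.17, SE 0.19, adjusted p = 0.00281). Leaving out glands 1 and 3 ended the call of Esrp2 (1.23, adjusted p = 0.0967, and 9.5e-04 to 0.0967 over all alternatives). Ptbp1, a splicing repressor, rose by 0.66 (SE 0.13), and Hnrnpf did not pass (0.31, adjusted p = 0.0807). The list had 6 tested genes, of which 3 rose, against 21.9% of all tested genes, with a median of 0.51. The splice forms themselves were not measured.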

How the data were processed

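RNA of 3 mammary glands and 3 mammary tumours was compared as tumour minus gland. HISAT2, StringTie and the build mm10 are named in the submitters' processing notes, without versions or roles, while annotation and strand use are not given in the sources read. The deposited values were taken as FPKM, normalized by the authors, because they are not whole, not negative and sum differently in each library. Exact zeros can be failed estimates, since gland 2, tumour 1 and tumour 3 each list at 0 a gene (1 per library) that is above 10 FPKM in all others, so zeros are given as listed. Steps between values under 0.3 FPKM gave no clear ratio of depth between libraries.

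The 13364 genes whose mean reached 1 FPKM were tested on log2(FPKM + 1), 2-sided, using limma 3.58.1 in R 4.3.3 with its trend option. P-values were adjusted by Benjamini-Hochberg over all of them and read at a threshold of 0.05. The fit was tested on simulated data. Sums, ratios and levels relative to a list had a 2-sided exact permutation test; a moderated test was not used for the last, since all genes then share the spread of the subtracted list. No list had a set test. The members, lists and alternatives were chosen with earlier results of these data known. Named genes were the members, the tested genes of the ligand, receptor and binding lists, in each other pathway list up to 4 called genes of lowest p and up to 2 uncalled genes of highest mean, in each marker list up to 3 and 1. One gene that the rule names is not reported here. Genes like the leading ligand and receptor were ranked by Pearson r. Positions came from GENCODE M21 on GRCm38 (mm10) and start regions from RefSeq.

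Libraries of the same number were not treated as pairs: their deviations from the group means had r = -0.0541, -0.118 and -0.124 across genes. The alternatives were a pseudocount of 0.1, no minimum, a minimum of 5 FPKM, quantile, median-of-ratios and common-sum scaling, a replicate block, each library left out, glands 1 and 3 left out, tumours 1 and 2 averaged, and members relative to the fibroblast or luminal list.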

Additional observations from a re-analysis of the deposited data

How the results depend on the processing

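Of 856 refits of 58 named genes over the alternatives, leaving aside levels relative to a list, 791 kept their direction and their side of the threshold, 55 lost the call, 5 gained one and 5 turned direction. Fgf1, Fgf2 and Fgf10 kept their call in every one of these that tested them and Fgfr2 in all but the one without glands 1 and 3. That fit, which left 1 gland assumed to vary as the tumours do, called 1858 genes, 760 higher and 1098 lower, against 6023, 2933 and 3090, and 2 of 5 tested members lower. A minimum of 5 FPKM left 2 members, 1 of them lower, and 1864 genes lower. With each library left out in turn, between 4217 and 6402 genes were called, 2043 to 3094 higher and 2174 to 3308 lower, and 4 or 5 members were lower and 0 higher. The replicate numbers do not pair the samples, and with the replicate block 4728 genes and 4 members were called. Quantile normalization moved the median of all tested genes to 0.113 and split the calls into 3612 higher and 2672 lower. With a common sum per library the split was 2279 to 3178.

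Relative to the fibroblast list the differences turned for Fgf1 (1.82), Fgf2 (0.69), Fgf10 (0.40), Fgfr2 (1.74) and Fgfr3 (2.71), and relative to the luminal list for Fgfr1 (-1.45). The gland levels of Fgf1, Fgf2, Fgf10 and Fgfr3 on this scale were smaller than the fall of the fibroblast list mean. Their turn was thus fixed in advance, even for a gene absent from every tumour, and says nothing about them. A gene with no change would also come out below 0 against the luminal list, which rose, so the turn of Fgfr1 says nothing about it. For Fgfr2 the cause was not tested. Fgfr3 turned under quantile normalization (0.27), as did the log2 ratio of Fgfr1 to Fgfr3 (-0.10). With each library left out, differences ran from -0.24 to 0.52 for Fgfr1, -0.11 to 0.20 for Magi3, -0.13 to 0.35 for Ets2 and -0.0998 to 0.29 for Zbtb43, the lowest of each being the value without tumour 3. In the same refits the summed receptor level differed by -0.50 to 0.18, the summed ligand level by -2.83 to -2.64, and the log2 ratios by 1.077 to 1.68 (Fgfr1 to Fgfr2), -0.00957 to 0.73 (Fgfr1 to Fgfr3) and -1.09 to -0.85 (Fgfr2 to Fgfr3). Counting error of low values could not be given without counts.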

Other observations

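The patterns of the leading ligand and receptor were set against 9764 other genes whose mean reached 5 FPKM, by Pearson r of log2(FPKM + 1) over the 6 libraries, as a description with no test. Most like Fgf10 were the glycogen regulator gene Ppp1r3b, the potassium channel gene Kcnk3 and A530016L24Rik, each with r over 0.999, and 174 genes had r over 0.99 with it, so these 3 are close to many others. Gland values of Ppp1r3b were 9.86, 9.54 and 9.20 FPKM, and its tumour values were 0.862, 0.652 and 0.534 FPKM. Kcnk3 stood at 10.3 to 12.4 FPKM in the glands and at 0.0825 to 0.337 FPKM in the tumours.

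Most like Fgfr1 were the scaffold gene Magi3 (r = 0.998), the ETS factor gene Ets2 (r = 0.996) and the zinc finger gene Zbtb43 (r = 0.995), and 4 genes had r over 0.99 with it. Ets2 stood at 37.5, 37.2 and 37.3 FPKM in the glands and at 30.8, 37.4 and 61.05 FPKM in tumours 1 to 3. Magi3 stood at 9.27 to 9.97 FPKM in the glands against 8.32, 9.30 and 13.4 FPKM in the tumours. None of the 3 passed the test of tumour against gland (adjusted p = 0.76, 0.649 and 0.653 in limma), and each was highest in tumour 3.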
